A study of Mus musculus with 9 samples.

Results

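The genes described here are 6 genes of the secretory lining of the mouse airway: Bpifa1 and Bpifb1, of the BPI fold family, the secretoglobins Scgb1a1, Scgb3a1 and Scgb3a2, and the cytochrome P450 gene Cyp2f2. They were taken by symbol from a table of read counts for 21983 genes, in which all 6 were present, and all 6 were among the 14739 genes with enough counts to be tested. The set was chosen from measured values of these same libraries, with the changes of Bpifa1 and Bpifb1 among the 3 groups already known. The levels and fold changes of the 6 genes are therefore given as a description, with no p-value, and no test is drawn from how many of them changed. Where a gene of the set is said to be called (adjusted p under 0.05), this records the outcome of the rule applied to all genes. Such calls, in the main fit or an alternative, rest on the values used for the choice and are not independent evidence of a difference.

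RNA was sequenced from whole lung of BALB/c mice, an inbred strain used in allergy models, with 3 libraries in each of 3 groups. The control mice were normal and the asthma mice asthmatic, and both received oral saline from day 14. The BSYQF mice were asthmatic and, from day 14, were dosed by mouth with BSYQF, the herbal Bu-Shen-Yi-Qi formula of Chinese medicine, at 20 g of raw herbs per kg for 6 weeks. The sources used here do not give the sex or age of the mice or how asthma was induced. The labels also do not say that replicates are separate mice, so the p-values below measure the spread between libraries, which may be in part technical.

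The airway lining is kept clear by ciliated cells and by secretory cells that pour proteins into the surface fluid. Club cells, the main secretory cells of mouse airways, make secretoglobins, which are small secreted proteins with anti-inflammatory activity, and hold detoxifying enzymes such as cytochrome P450s. BPI fold proteins are related to the bactericidal/permeability-increasing protein of neutrophils and bind lipids and bacterial products. In allergic airway disease secretory cells are known to take on a mucus-producing, goblet cell character.

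The libraries held 16286385 to 22819199 counts in genes, and levels are given below as counts-per-million (CPM) values scaled by TMM factors, or as CPM per kilobase of exon where genes are compared with each other. The lowest count of any of the 6 genes in any library was 309, against a detection floor of 3 counts. Asthma replicate 3 and BSYQF replicate 1 stood apart from their groups: on the main axis of variation, which held 51.6% of the variance, they lay at 1.77 and 40.5, whereas the other asthma libraries lay at 51.9 and 76.0 and the other BSYQF libraries at 1.20 and -19.6. Results that rest on these libraries are given with and without them, a choice made after the data were seen. Lung markers were present: all 10 alveolar type 2 cell genes and all 32 further club cell genes examined had counts in every group. Presence alone does not identify the tissue, since all 12 cardiac muscle genes examined also had counts in every group. By summed level the 10 alveolar genes were at 23600 to 35600 CPM and the 12 cardiac genes at 167 to 1570 CPM.

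Bpifa1 and Bpifb1 lie in the Bpif cluster of chromosome 2, on the plus strand in mm10 (GRCm38): Bpifa1 from 154142880 to 154149219 and Bpifb1 from 154190818 to 154220369, with 41598 bp and the gene Bpifa5 between them. Scgb1a1 is a minus-strand gene of chromosome 19 (9083636 to 9087958), and Scgb3a1 (chromosome 11, 49663610 to 49665118) and Cyp2f2 (chromosome 7, 27119909 to 27133660) are plus-strand genes. All 6 are annotated as protein coding, and 0 other genes of the count table overlap any of them. Reads were counted over whole genes, so the values do not separate exons or isoforms.

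The promoters of Bpifa1 and Bpifb1 are shown because these genes of a single cluster differed in opposite directions in asthma, and that of Scgb3a1 because it moved in the same direction as Bpifb1. RefSeq promoter entries (GRCm38.p6) were matched by symbol for 4 of the 6 genes, namely these and Cyp2f2, and not for Scgb1a1 and Scgb3a2. Each line gives the 250 bases before the RefSeq start, 5′ to 3′ on the plus strand, with capitals where a motif was found: chr2:154142630-154142879 for Bpifa1, chr2:154190568-154190817 for Bpifb1 and chr11:49663345-49663594 for Scgb3a1.
Bpifa1 promoter: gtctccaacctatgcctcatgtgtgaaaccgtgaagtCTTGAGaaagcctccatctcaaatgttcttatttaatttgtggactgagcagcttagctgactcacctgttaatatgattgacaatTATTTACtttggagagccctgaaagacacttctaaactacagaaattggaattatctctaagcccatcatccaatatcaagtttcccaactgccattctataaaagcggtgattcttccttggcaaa
Bpifb1 promoter: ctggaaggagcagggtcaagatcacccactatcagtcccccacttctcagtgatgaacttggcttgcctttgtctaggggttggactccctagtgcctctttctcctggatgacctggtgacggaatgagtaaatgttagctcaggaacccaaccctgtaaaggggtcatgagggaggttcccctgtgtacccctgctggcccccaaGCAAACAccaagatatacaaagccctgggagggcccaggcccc
Scgb3a1 promoter: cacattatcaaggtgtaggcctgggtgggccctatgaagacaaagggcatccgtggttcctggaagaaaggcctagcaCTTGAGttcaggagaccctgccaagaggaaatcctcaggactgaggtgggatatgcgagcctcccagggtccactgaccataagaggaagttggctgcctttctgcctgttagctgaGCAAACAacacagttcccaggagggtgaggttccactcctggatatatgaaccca

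The motifs searched, on both strands, were those of factors known to act in secretory airway cells: FOXA, in the form TGTTTAC or its variant TATTTAC and likewise in the form TGTTTGC or its variant TATTTGC, NKX2-1, in the form CTCAAG, C/EBP, in the form TTNNGCAA, and STAT6. Matches were allowed to overlap, and none did in the windows shown. All 3 printed windows held a FOXA match, at 127 to 121 bases before the start in Bpifa1, 43 to 37 in Bpifb1 and 55 to 49 in Scgb3a1. RefSeq holds a further Bpifb1 start, whose window (chr2:154200130-154200379) is not printed and held 2 overlapping FOXA matches, at 110 to 104 and 115 to 109 bases before that start. An NKX2-1 match lay at 213 to 208 bases before the start of Bpifa1 and at 172 to 167 before that of Scgb3a1. Of 32851 RefSeq promoter windows of this length, 11.9% held a FOXA match, 13.3% an NKX2-1 match, 9.56% a C/EBP match and 5.85% a STAT6 match. The window before Cyp2f2 held none of the 4 motifs, and a match here is a run of letters, not a measured binding site.

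Bpifa1, also known as SPLUNC1, is a secreted lipid-binding protein of the upper and large airways that limits bacterial growth. In control lung it was at 434, 609 and 621 CPM, in asthma at 17.5, 30.8 and 83.9 CPM, and with BSYQF at 270.0, 524 and 487 CPM (replicates 1, 2 and 3 in each case). Every asthma library lay below every library of the other groups, and the BSYQF libraries overlapped those of control, with BSYQF replicate 1 the lowest of that group. The means were 555 CPM in control (coefficient of variation 18.9%), 44.1 ± 35.1 in asthma and 427 ± 137 with BSYQF (SD, n = 3). Asthma was 12.6-fold below control, a log2 fold change of -3.65 ± 0.53 (SE), which stood at place 32 from the lowest among 14739 genes. In bulk lung, fewer cells of a type and less RNA per cell cannot be told apart.

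Against asthma, Bpifa1 with BSYQF was 9.66-fold higher, a log2 difference of 3.27 ± 0.52, and against control it differed by -0.38 ± 0.48. Over 19 alternative analyses of the same libraries the difference between asthma and control ranged from -4.54 to -3.29. The difference between BSYQF and asthma was not called, and it was called in 4 of 19 alternatives, among them without asthma replicate 3 (4.15) and without asthma replicate 3 and BSYQF replicate 1 together (4.40). The authors' deposited table of BSYQF against asthma lists Bpifa1, with a log2 fold change of 3.29, among 424 genes. By their names, the authors' lists were cut on log2 fold change and p-value, which is not the rule for a call used here.

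**Figure D1:**
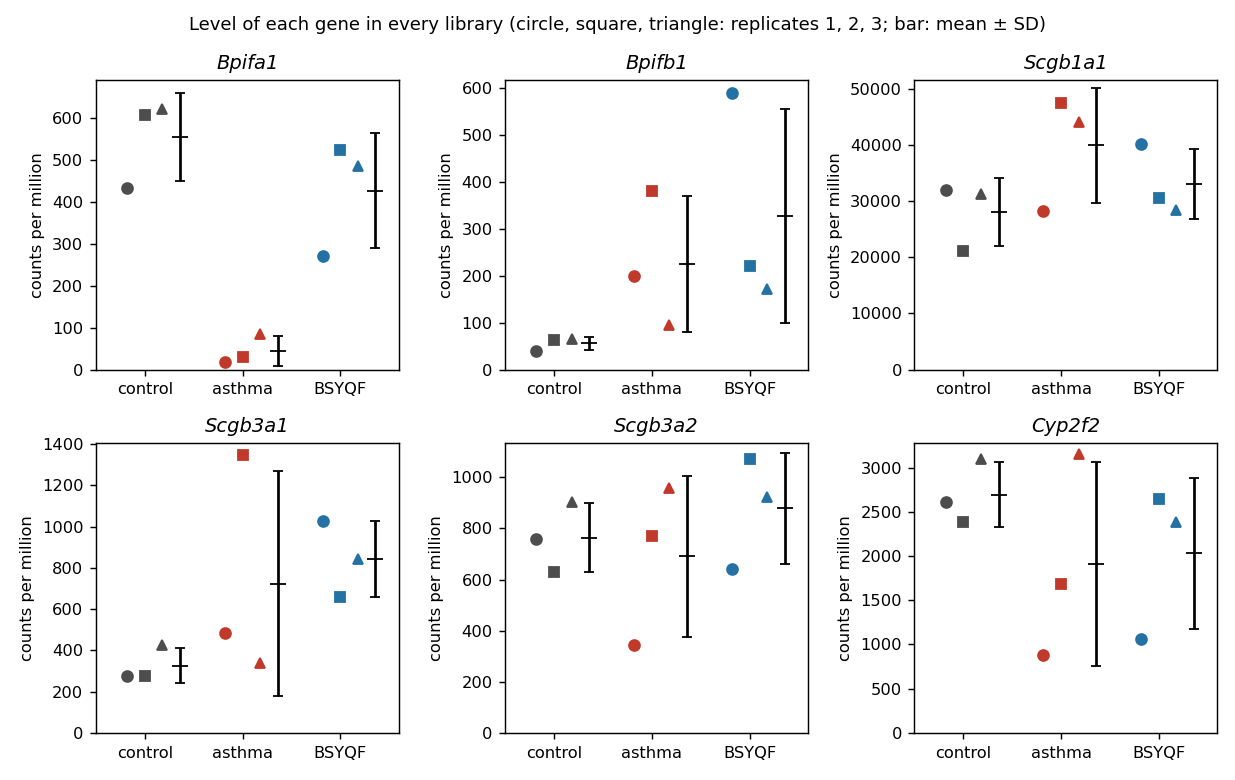
Level of each of the 6 genes in every library, in CPM on a linear axis from 0, by group (control, asthma, BSYQF); circle, square and triangle are replicates 1, 2 and 3 and the bar is the mean ± SD. Bpifa1 in asthma sits between 17.5 and 83.9 CPM, below every other library, whereas Scgb1a1, Scgb3a2 and Cyp2f2 overlap among the groups.

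Bpifb1, or LPLUNC1, is a secreted relative of Bpifa1 known from goblet cells and airway glands. It was at 39.5, 63.4 and 64.9 CPM in control, 199.8, 381 and 95.0 in asthma, and 591, 221 and 172 with BSYQF. All libraries of the asthma and BSYQF groups lay above all controls, and those groups overlapped each other. Their spread was wide, with a coefficient of variation of 64.3% in asthma and 69.7% with BSYQF against 25.5% in control. The means were 55.9 ± 14.3, 225 ± 145 and 328 ± 229 CPM (SD, n = 3).

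Asthma was 4.03-fold above control in Bpifb1 (log2 2.01 ± 0.57), BSYQF 5.87-fold above control (2.55 ± 0.58), and BSYQF differed from asthma by 0.54 ± 0.55. By the rule applied to all genes, the difference between asthma and control was called, close to the threshold, and in 10 of 19 alternatives (1.38 to 2.36). Bpifb1 was chosen with its changes known, so these calls describe the difference and do not test it. The difference between BSYQF and control was not called but was in 6 of 19 alternatives (1.81 to 2.86), with the same limit. BSYQF replicate 1 set the height of its group: without it the difference from control was 1.81 and that from asthma -0.19. The authors' deposited tables list Bpifb1 at 1.98 for asthma and 2.54 for BSYQF, each against control.

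Within a library, the ratio of Bpifa1 to Bpifb1 counts needs no scaling between libraries. It was 10.99, 9.60 and 9.57 in control, 0.0875, 0.0807 and 0.884 in asthma, and 0.457, 2.37 and 2.83 with BSYQF. Bpifa1 thus had more counts than Bpifb1 in every control and fewer in every asthma library. With BSYQF it had fewer in replicate 1 and more in the other libraries. Counts do not allow for the longer exons of Bpifb1. Per kilobase of exon, Bpifa1 was above Bpifb1 in asthma replicate 3 (54.3 against 26.3 CPM per kb). The same held in BSYQF replicate 1 (174.7 against 163.3). In the ratio of counts no control overlapped either asthmatic group, while BSYQF replicate 1 lay below asthma replicate 3. These ratios, like those that follow, were chosen after the values were seen.

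**Figure D2:**
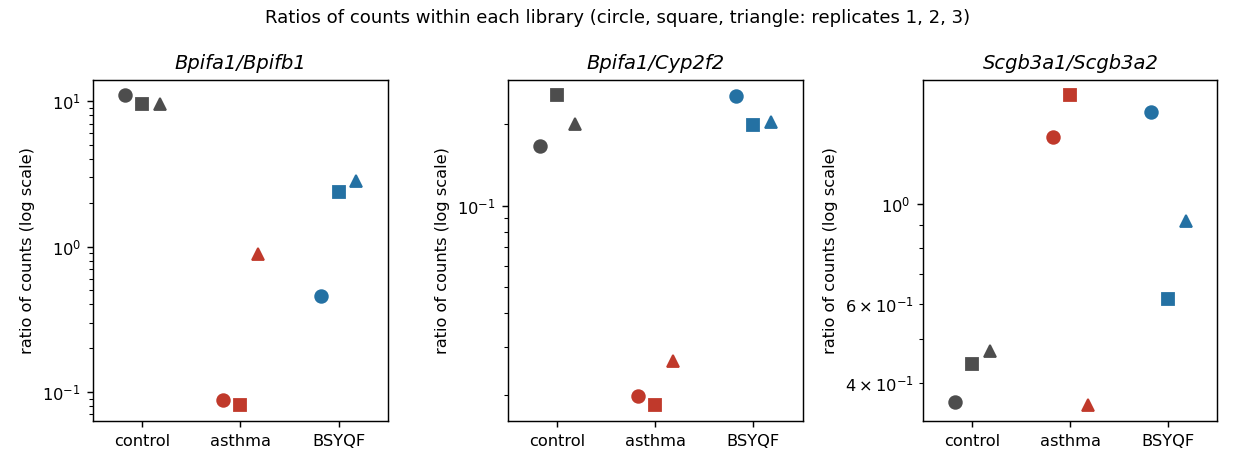
Ratios of counts within each library on log axes, for Bpifa1 to Bpifb1, Bpifa1 to Cyp2f2 and Scgb3a1 to Scgb3a2, by group; circle, square and triangle are replicates 1, 2 and 3. Bpifa1 to Bpifb1 falls from 9.57 or more in control to 0.0807 to 0.884 in asthma, and Bpifa1 to Cyp2f2 separates the 3 asthma libraries from the other 6.

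The rest of the Bpif cluster was almost silent. The cluster held 13 Bpif genes over 445602 bp, from 153875045 to 154320646, all on the plus strand, of which 6 had 0 counts in every library and 3 reached 10 counts in any library. The 3 were Bpifa1, Bpifb1 and Bpifb5, which had 36 to 108 counts. Bpifa5, between Bpifa1 and Bpifb1, had 0 counts in every library. The starts of Bpifa1 and Bpifb1 are 47938 bp apart.

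**Figure D3:**
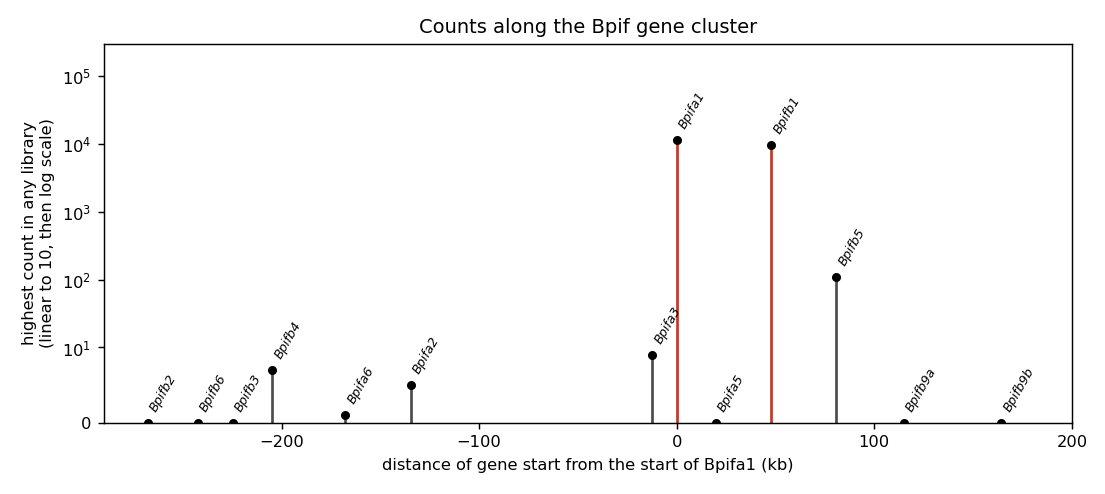
Highest count of each Bpif gene in any of the 9 libraries (vertical axis, linear to 10 and then logarithmic) against the distance of its start from that of Bpifa1 in kb. Bpifa1 and Bpifb1 (red) reach 11678 and 9753 counts, Bpifb5 reaches 108, and no other gene of the cluster reaches 10.

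Of the 15 other BPI fold family genes counted, 3 passed the filter on low counts, and no count over those 3 is taken as a result. Lbp, the lipopolysaccharide-binding protein, rose in asthma from 74.4 ± 11.2 to 168 ± 36.4 CPM (log2 1.18 ± 0.19, adjusted p = 0.00873, edgeR's quasi-likelihood test, Benjamini-Hochberg). Pltp, the phospholipid transfer protein, fell from 280.0 ± 58.6 to 139 ± 58.7 CPM (-1.01 ± 0.28, adjusted p = 0.0422 in the same edgeR test), a call that was lost in 7 of 19 alternatives: with the 2 groups only and without any 1 control library, asthma replicates 1 or 2, or BSYQF replicate 2. Bpifb5 differed by -0.79 ± 0.31 (adjusted p = 0.0991, edgeR), from 5.15 to 2.96 CPM, and was at 3.92 CPM with BSYQF.

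Scgb1a1, the club cell secretory protein CC10 or uteroglobin, is the hallmark product of club cells and was the most abundant of the 6 genes in every library. It was at 31970, 21130 and 31160 CPM in control, 28270, 47410 and 44060 in asthma, and 40210, 30560 and 28460 with BSYQF. The groups overlapped, with control replicate 2 the lowest library and asthma replicate 2 the highest. Its log2 differences were 0.51 ± 0.32 for asthma and 0.24 ± 0.32 for BSYQF against control, and -0.27 ± 0.32 for BSYQF against asthma. It made up 84.2 to 93.6% of the counts of the 6 genes, so their summed share, at 2.58 to 4.76% of a library, mostly follows Scgb1a1. Scgb1a1 ranked 1 among all genes in each library except asthma replicate 2, where it ranked 2.

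Scgb3a1, a secretoglobin of the larger airways also called HIN-1, was at 276, 277 and 424 CPM in control, 483, 1347 and 341 in asthma, and 1027, 658 and 845 with BSYQF. All BSYQF libraries lay above all controls, whereas asthma replicate 3 lay within the control range and asthma replicate 2 above every other library. BSYQF was 2.59-fold above control (log2 1.37 ± 0.44), a difference that was not called and was called in 2 of 19 alternatives (1.20 to 1.61). Asthma differed from control by 1.15 ± 0.43, which was called without asthma replicate 3 (1.47) and stood at 0.32 without asthma replicate 2. Against asthma, BSYQF differed by 0.22 ± 0.43. The authors' deposited table lists Scgb3a1 for BSYQF against control at 1.37.

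Scgb3a2, a secretoglobin of the smaller airways on the plus strand of chromosome 18 (43764289 to 43767399), did not separate the groups. It was at 760, 630.2 and 902 CPM in control, 343, 772 and 957 in asthma, and 643, 1071 and 923 with BSYQF. The lowest library was asthma replicate 1 and the highest BSYQF replicate 2. Asthma differed from control by -0.15 ± 0.33 on the log2 scale, and BSYQF from asthma by 0.35 ± 0.33 and from control by 0.20 ± 0.33.

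The ratio of Scgb3a1 to Scgb3a2 counts was 0.363, 0.440 and 0.470 in control, 1.41, 1.75 and 0.357 in asthma, and 1.60, 0.614 and 0.916 with BSYQF. Every BSYQF library was above every control, and of the asthma libraries replicate 3 was below every control. Per 1000 Scgb1a1 counts, Scgb3a1 gave 8.63, 13.1 and 13.6 counts in control, 17.1, 28.4 and 7.75 in asthma, and 25.6, 21.5 and 29.7 with BSYQF. Scgb3a2 gave 23.8, 29.8 and 29.0 counts per 1000 of Scgb1a1 in control and 12.1, 16.3 and 21.7 in asthma, all below control, and 16.0, 35.1 and 32.4 with BSYQF.

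Of 34 secretoglobin genes in the table, 25 had 0 counts in every library, 30 had at most 10 counts in every library, and 4 were tested. Besides those above, Scgb1c1 was tested, at 10.9 ± 2.09 CPM in control, 6.18 ± 2.99 in asthma and 6.27 ± 0.769 with BSYQF. Its difference between asthma and control was -0.81 ± 0.33 (adjusted p = 0.110, edgeR).

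Cyp2f2, a cytochrome P450 of club cells that activates naphthalene and related toxicants, spread widely in the asthmatic groups. It was at 2607, 2381 and 3098 CPM in control, 886, 1688 and 3158 in asthma, and 1060, 2640 and 2391 with BSYQF. Asthma replicate 3 was the highest of all libraries and asthma replicates 1 and 2 were below every control, so that the groups overlapped. The coefficient of variation was 13.6% in control, 60.3% in asthma and 41.8% with BSYQF. The log2 differences were -0.50 ± 0.43 for asthma and -0.41 ± 0.43 for BSYQF against control and 0.09 ± 0.43 for BSYQF against asthma. The first was -1.08 without asthma replicate 3, and was called at that value when BSYQF replicate 1 was left out as well.

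Against Scgb1a1, the other club cell product, Cyp2f2 was lower in every asthma library: per 1000 Scgb1a1 counts it gave 81.6, 113 and 99.4 in control, 31.3, 35.6 and 71.7 in asthma, and 26.4, 86.4 and 84.0 with BSYQF. Bpifa1 per 1000 Cyp2f2 counts spread less in the asthmatic groups than Bpifa1 itself, and was 166, 256 and 201 in control, 19.8, 18.2 and 26.6 in asthma, and 255, 199 and 204 with BSYQF. The group means were 208 ± 45.1, 21.5 ± 4.44 and 219 ± 31.0 (SD, n = 3), so that on this scale asthma replicate 3 and BSYQF replicate 1 lay with their own groups and the BSYQF libraries within the range of control. Bpifa1 per 1000 Scgb1a1 counts was 13.6, 28.8 and 19.9 in control, 0.619, 0.649 and 1.91 in asthma, and 6.71, 17.2 and 17.1 with BSYQF.

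Read per kilobase of exon, the order of the 6 genes in control was Scgb1a1 (59000 CPM per kb), Cyp2f2 (1331), Scgb3a2 (868), Scgb3a1 (545), Bpifa1 (359) and Bpifb1 (15.5), and no neighbours in this order overlapped. In asthma the means were 83860 for Scgb1a1, 1210 for Scgb3a1, 943 for Cyp2f2, 785 for Scgb3a2, 62.3 for Bpifb1 and 28.5 for Bpifa1. There, Scgb3a1, Cyp2f2 and Scgb3a2 overlapped each other, as did Bpifb1 (26.3 to 105.5) and Bpifa1 (11.3 to 54.3). With BSYQF the order was Scgb1a1 (69490), Scgb3a1 (1411), Cyp2f2 (1003), Scgb3a2 (999), Bpifa1 (276) and Bpifb1 (90.7). Bpifa1, at 175 to 339 CPM per kb, was again above Bpifb1, at 47.7 to 163, in every BSYQF library, while Scgb3a1, Cyp2f2 and Scgb3a2 still overlapped.

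**Figure D4:**
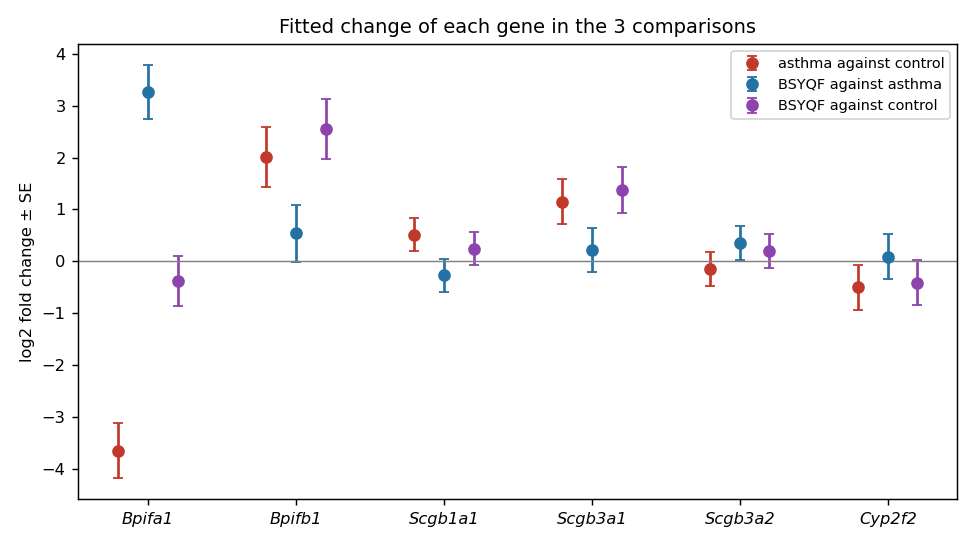
Fitted log2 fold change ± SE of each of the 6 genes in the 3 comparisons of groups (red, asthma to control; blue, BSYQF to asthma; purple, BSYQF to control); the line at 0 is no difference and each pair of comparisons shares a group of 3 libraries. Bpifa1 is at -3.65 in asthma and 3.27 for BSYQF against asthma, and Bpifb1 is at 2.01 and 2.55 against control.

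Counted over the set, 2 of 6 genes were called between asthma and control, Bpifa1 lower and Bpifb1 higher, where 12.7% of all tested genes were called, 8.23% higher and 4.45% lower. The same 2 genes were those whose libraries did not overlap, as was so for 40.4% of all genes. Between BSYQF and asthma 0 of 6 were called by edgeR, against 0.00678% of all genes. At an unadjusted p under 0.05 there was 1 of the 6, beside 1171 of all 14739 genes, and DESeq2 called 1 of the 6, beside 123 of all genes. Bpifa1 alone did not overlap, against 9.75%. Between BSYQF and control 0 of 6 were called by edgeR, against 1.67% of all genes, 1.63% higher. At an unadjusted p under 0.05 there were 2 of the 6, beside 2330 of all 14739 genes, and DESeq2 called 1 of the 6, beside 826 of all genes. Bpifb1 and Scgb3a1 did not overlap, against 24.8%. The median log2 fold changes of the 6 genes were 0.18, 0.28 and 0.22 in these comparisons, against 0.02, -0.00 and -0.00 over all genes. Since the genes were chosen with these values known, nothing is read from the calls or the shares. The comparisons share libraries and are not separate measurements.

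The libraries of a disease group were not alike, and the genes fell in a different order across them. On a log2 scale relative to the control mean (CPM with a prior count of 2), Cyp2f2 was at -1.60, -0.67 and 0.24 in asthma and -1.34, -0.02 and -0.16 with BSYQF. The mean of 32 other club cell genes was at -0.68, -0.27 and 0.21 in asthma and -0.33, 0.08 and -0.07 with BSYQF, the same order of libraries in both groups. Bpifb1 was at 1.87, 2.80 and 0.80 in asthma and 3.43, 2.02 and 1.66 with BSYQF. The mean of 16 goblet cell genes, at 3.24, 3.98 and 2.0 and at 4.21, 2.37 and 1.90, ordered the libraries of both groups as Bpifb1 did. Scgb1a1 (0.03, 0.78 and 0.67, then 0.54, 0.15 and 0.04) and the mean of 13 ciliated cell genes (0.29, 0.98 and 0.67, then 0.51, 0.48 and 0.14) also shared their order in both groups. These orders are a description of 9 libraries.

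**Figure D5:**
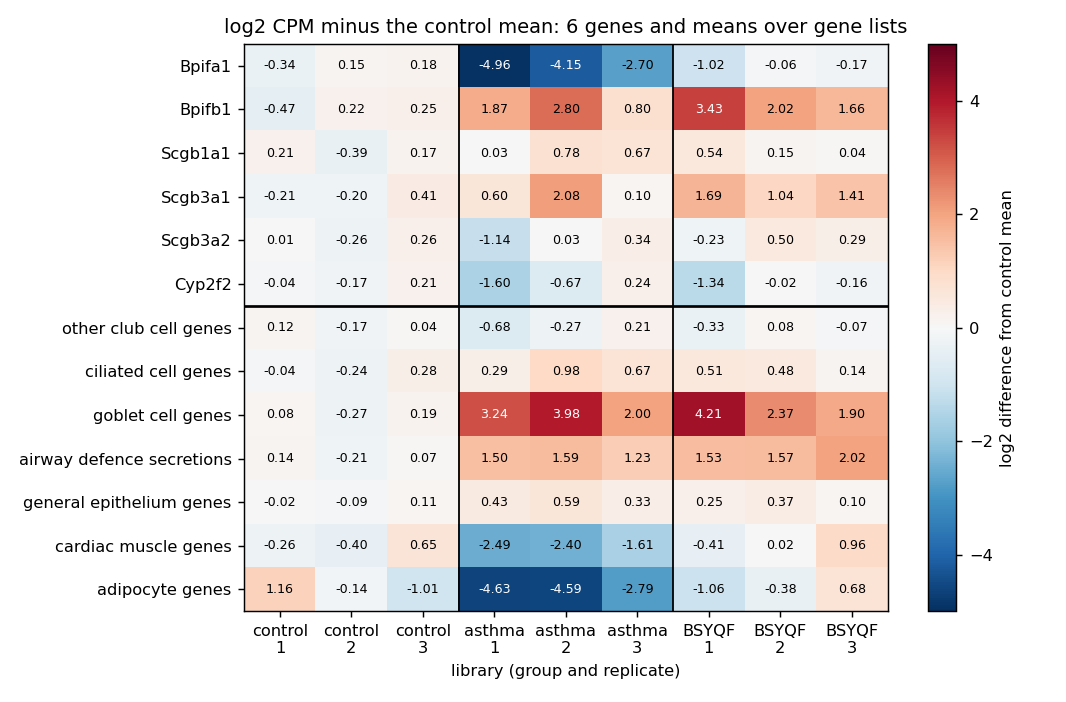
Log2 CPM minus the control mean in each of the 9 libraries (columns) for the 6 genes (upper rows) and for the mean of each companion gene list (lower rows); red is above and blue below control, on the scale at the right. Bpifa1 runs from -4.96 to -2.70 in asthma and from -1.02 to -0.06 with BSYQF, while Bpifb1 and the goblet cell genes are above control in all 6 asthmatic libraries.

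Among the 32 other club cell genes tested, 2 rose and 3 fell in asthma, where 8.23% of all genes were called higher and 4.45% lower. Counts this small are not read as a result about the list. The median log2 fold change was -0.31 against 0.02 over all genes. Hp, the haemoglobin scavenger haptoglobin, rose from 1010 ± 198 to 2150 ± 420 CPM and was at 1060 ± 176 with BSYQF (1.08 ± 0.22, adjusted p = 0.0184, edgeR). Gsto1, a glutathione transferase, rose by 1.03 ± 0.29 (adjusted p = 0.0432, edgeR). Gstm1, also a glutathione transferase, fell by 0.85 on the log2 scale (SE 0.19, adjusted p = 0.0245, edgeR), from 428 ± 8.18 to 237 ± 68.5 CPM, and Sult1d1, a sulfotransferase, was at -1.76 ± 0.47 (adjusted p = 0.0391, edgeR). The flavin monooxygenase Fmo1 was the remaining gene that fell (-1.01 ± 0.30, adjusted p = 0.0494, edgeR). The most abundant gene of the list, the carbonyl reductase Cbr2, differed by -0.54 ± 0.37 (adjusted p = 0.316), the retinal dehydrogenase Aldh1a1 by -0.40 ± 0.30 (adjusted p = 0.366) and Fmo2 by -1.53 ± 0.47 (adjusted p = 0.0563, all edgeR). Between BSYQF and asthma, and between BSYQF and control, 0 of 32 were called. Of all genes 0.00678% and 1.67% were called in these comparisons, so nothing is read from the 0. Without asthma replicate 3 and BSYQF replicate 1 the counts in asthma were 4 higher and 14 lower, and between BSYQF and asthma 11 higher and 1 lower. Over all genes that fit called 5361 in asthma and 1744 between BSYQF and asthma, in either direction, against 1869 and 1 in the main fit.

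Of 16 other secreted defence genes of the airway tested, 6 rose and 0 fell in asthma, where 8.23% of all genes were called higher, and 10 were not called. Of those 10, Lyz1, a lysozyme (-0.88 ± 0.39, adjusted p = 0.137, edgeR), and Msln, mesothelin (-0.95 ± 0.38, adjusted p = 0.111), had values below 0. Between BSYQF and control 6 rose and 0 fell, where 1.63% of all genes were called higher. Slpi, a protease inhibitor of airway secretions, rose from 33.2 ± 4.74 to 1450 ± 864 CPM (log2 5.45 ± 0.51, adjusted p = 0.00238, edgeR) and was at 834 ± 281 with BSYQF (4.65 ± 0.50 against control, adjusted p = 0.00506). Lcn2, which binds bacterial siderophores, rose by 4.0 ± 0.41 (adjusted p = 0.00238, edgeR) and was 3.06 ± 0.39 above control with BSYQF (adjusted p = 0.00926). Pigr, the receptor that carries IgA into secretions, rose by 2.5 ± 0.27 in both (adjusted p = 0.00238 and 0.00506, edgeR), and the collectin Sftpd rose by 1.33 ± 0.23 in asthma (adjusted p = 0.0100). The most abundant genes of the list by RNA, the lysozyme gene Lyz2 (0.17 ± 0.27, adjusted p = 0.686, edgeR) and the collectin gene Sftpa1 (0.45 ± 0.22, adjusted p = 0.173), were not called. The complement gene C3 rose by 1.34 ± 0.26 (adjusted p = 0.0148, edgeR). Between BSYQF and asthma 0 of 16 were called, where 0.00678% of all genes were called. The median log2 fold change of the list was 1.17 in asthma and 1.79 with BSYQF, each against control.

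Of 16 goblet cell genes, 12 rose and 0 fell in asthma, where 8.23% of all genes were called higher. Among the 12 were the mucin Muc5b (2.99 ± 0.55, adjusted p = 0.0148, edgeR), the anion exchanger Slc26a4 (4.92 ± 0.77, adjusted p = 0.0100) and Agr2, which folds mucins (3.85 ± 0.69, adjusted p = 0.0132). Between BSYQF and control 3 rose, Slc26a4, Clca1 and Muc5ac, where 1.63% of all genes were called higher. Between BSYQF and asthma 0 were called, where 0.00678% of all genes were called. Without asthma replicate 3 and BSYQF replicate 1, 16 rose in asthma, 8 rose between BSYQF and control, and 7 were lower with BSYQF than in asthma. Over all genes that fit called 5361, 427 and 1744 in these comparisons, in either direction. The part of such cells in the Bpifb1 values was not tested. Of 13 ciliated cell genes 6 rose in asthma, and of 12 general epithelium genes 2, where 8.23% of all genes were called higher. The 2 were the epithelial transcription factor Elf3 (1.27 ± 0.27, adjusted p = 0.0198, edgeR) and the adhesion molecule Epcam (0.57 ± 0.14, adjusted p = 0.0299). Of 10 alveolar type 2 cell genes 1 rose, Sftpd, a share near that of all genes.

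Of 18 regulators known in secretory airway cells, 1 rose and 1 fell in asthma, a share near the 8.23% and 4.45% of all genes. Cebpb, a C/EBP factor of inflammation, rose by 1.15 ± 0.29 (adjusted p = 0.0349, edgeR) and Gata6, a lung epithelial GATA factor, was at -0.78 ± 0.21 (adjusted p = 0.0383). Among the factors whose motifs were searched above, Nkx2-1 differed by 0.22 ± 0.20 (adjusted p = 0.465), Foxa2 by -0.08 ± 0.15 (adjusted p = 0.751), Foxa1 by -0.20 ± 0.23 (adjusted p = 0.561) and Cebpa by 0.02 ± 0.14 (adjusted p = 0.938), all by edgeR. Stat6 differed by -0.22 ± 0.14 (adjusted p = 0.276, edgeR). Foxa3, a FOXA factor counted above among the goblet cell genes, rose by 2.95 ± 0.80 (adjusted p = 0.0406, edgeR). Its level was low, at 0.299 ± 0.156 CPM in control, 2.36 ± 1.05 in asthma and 2.45 ± 2.27 with BSYQF. The part of any of these factors in the levels of the 6 genes was not tested. The other abundant regulators, Nfib (-0.33 ± 0.14, adjusted p = 0.129) and Cebpd (0.55 ± 0.25, adjusted p = 0.142), were not called. With BSYQF, 0 of 18 were called against either group, where 0.00678% of all genes were called against asthma and 1.67% against control. Without asthma replicate 3 and BSYQF replicate 1, 1 rose and 6 fell in asthma, and 2 were higher and 1 lower with BSYQF than in asthma. In that fit 5361 of all genes were called in asthma and 1744 between BSYQF and asthma, in either direction, so nothing is read from these counts.

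Single libraries set several of these counts in asthma, as they did the calls over all genes. Of all genes 1869 were called in the main fit, and 438, 182 and 357 without control replicates 1, 2 and 3. Without asthma replicates 1, 2 and 3 they were 171, 248 and 4262, and without BSYQF replicates 1, 2 and 3 they were 2646, 944 and 2232. The changes in the list counts are therefore not read as particular to a list. The 12 goblet cell genes called became 0 without control replicate 2, 1 without asthma replicate 1, 2 without asthma replicate 2 or control replicate 1, and 4 without control replicate 3. The 6 ciliated cell genes became 0 without any 1 control library, asthma replicates 1 or 2, or BSYQF replicate 2, and the 3 club cell genes that fell became 12 without asthma replicate 3, 1 without BSYQF replicate 2 and 0 without any 1 control library or asthma replicates 1 or 2. The 2 general epithelium genes became 0 without control replicates 2 or 3 or asthma replicates 1 or 2, 1 without control replicate 1 or BSYQF replicate 2, 4 without BSYQF replicates 1 or 3, and 5 without asthma replicate 3. Among the regulators, the gene that rose and the gene that fell were each lost without any 1 control library or asthma replicates 1 or 2, the latter also without BSYQF replicate 2, and 4 fell without asthma replicate 3. The 6 defence genes became 3 without control replicate 2 and were 5 to 7 in the other cases. Between BSYQF and control, the 3 goblet cell genes became 0 without any 1 control library, 1 without asthma replicate 1, 6 without BSYQF replicate 3 and 7 without asthma replicate 3, and the 6 defence genes became 2 without control replicates 2 or 3. Of all genes 246 were called there in the main fit, and 72, 17 and 9 without control replicates 1, 2 and 3. Without asthma replicates 1 and 3 they were 146 and 563, and without BSYQF replicate 3 they were 271.

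By Pearson's r of log2 CPM over the 9 libraries, among 13658 named genes at a mean of at least 1 CPM, the genes most like Bpifa1 were Cox8b (r = 0.986), Gdf10 (0.978), Smpx (0.974), Trim63 (0.961), Cyp4a12b (0.960), Krt15 (0.955), Lrig3 (0.954), Myh6 (0.950), Fabp3 (0.948) and Kcnj3 (0.948). Cox8b, Smpx, Trim63, Myh6, Fabp3 and Kcnj3 are known from heart or striated muscle, which mouse lung holds around its pulmonary veins. All 12 cardiac muscle genes examined had counts in every group, and 9 fell in asthma, where 4.45% of all genes were called lower. The summed level of the 12 was 573 to 1160 CPM in control, 167 to 331 in asthma and 545 to 1570 with BSYQF. Of 8 adipocyte genes 6 fell in asthma, against the same 4.45% of all genes. The summed level of the 8 was 126 to 609 CPM, 26.0 to 51.9 and 136 to 510 in the same order of groups, and Lep was at 0 in asthma. Without asthma replicate 3 and BSYQF replicate 1, 11 cardiac and 7 adipocyte genes fell in asthma, where 5361 of all genes were called in either direction. Without 1 library the 9 cardiac genes became 0 (asthma replicate 1), 2 (asthma replicate 2 or control replicate 3), 4 (control replicate 1) or 5 (control replicate 2), and the 6 adipocyte genes 1 (asthma replicates 1 or 2 or control replicate 2). The calls over all genes also changed under each of these omissions, as given above. The part of the tissue sampled in the Bpifa1 difference was not tested.

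Genes of the large airway, where Bpifa1 is known to be made, were read in the same way. Of 10 basal cell genes 2 fell and 1 rose in asthma, where 4.45% of all genes were called lower and 8.23% higher. The median log2 fold change was -0.09, with 5 genes above 0, among them Trp63 (0.68 ± 0.56, adjusted p = 0.412, edgeR). Krt5, the basal cell keratin, was at 2.39 ± 0.359 CPM in control, 0.135 ± 0.0908 in asthma and 4.86 ± 2.03 with BSYQF (-4.13 ± 0.60, adjusted p = 0.00715, edgeR). Its lowest count in any library was 1, and that of Krt15 was 2, under the detection floor of 3 counts. Krt15 was at -3.46 ± 0.59 (adjusted p = 0.0100, edgeR) and Sfn rose by 1.92 ± 0.48 (adjusted p = 0.0332). Krt5 was also the single gene called between BSYQF and asthma (5.15 ± 0.60, adjusted p = 0.0431, edgeR). That call was lost in 9 of 19 alternatives: with limma voom, with the 2 groups only, and without any 1 control library, asthma replicates 1 or 2, or BSYQF replicates 1 or 3. Sfn was not called in 7 of 19, with limma voom and without any 1 control library, asthma replicates 1 or 2, or BSYQF replicate 2. Of 12 genes of airway glands and upper airway, 6 were at 0 in each group, and their summed level was 694 to 1060 CPM in control, 551 to 887 in asthma and 593 to 1340 with BSYQF. The summed level of 10 cartilage genes was 1.30 to 4.80 CPM, 0.852 to 3.76 and 0.349 to 3.43, and these ranges overlapped. Of the cartilage genes only 1, Comp, passed the filter on low counts, and of the gland genes 4. Lyz1 alone was at 713 CPM in control, so both sums rest on few genes and do not compare large airway content. Of 10 smooth muscle genes 1 fell in asthma, where 4.45% of all genes were called lower. The part of large airway in the Bpifa1 values was not tested.

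The genes most like the others differed from gene to gene. For Bpifb1 they were H2-Aa (r = 0.988), an antigen-presenting class II gene, Pim1 (0.984), Zfp385a (0.984), Rhog (0.982) and Unc93b1 (0.978). For Scgb1a1 they were Rsph9 (0.963), Mns1 (0.951) and Catip (0.948), all known from cilia, with Ttc32 (0.947) and Clba1 (0.947). Scgb3a1 was most like Poli (0.975), Kcne3 (0.967), Wdr95 (0.960), Stat5a (0.954) and Nefh (0.954), and Scgb3a2 most like Foxa2 (0.956), Nov (0.953), Atp6v1b1 (0.946), Lyplal1 (0.944) and Sbspon (0.937). Cyp2f2 was most like Cbs (0.990), Vmac (0.983), the club cell enzyme Cbr2 (0.982), Tsga10 (0.978) and Emb (0.970). Each r is taken over the same 9 libraries, 6 of them asthmatic, and describes them only.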

How the data were processed

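Lung RNA of 9 libraries (3 groups of 3) was isolated with Trizol and made into NEBNext Ultra libraries, per the labels' protocols. FastQC, cutadapt, STAR, HTSeq, DESeq2 and the build mm10 are named in the submitters' processing notes. Settings, strand handling and the treatment of shared reads were not given in these sources. The values deposited by the authors are raw whole-number counts for each gene. Comparison tables with log2 fold changes and p-values were deposited too, per the file headers; their 36 per-library columns were not used. Genes were tested with edgeR 4.0.16 (R 4.3.3): TMM, filterByExpr, quasi-likelihood test over all 9 libraries, Benjamini-Hochberg adjustment over 14739 genes, called at an adjusted p under 0.05. The code of the fit was tried on counts simulated with the same spread for all genes and no outlying library. That trial therefore does not bear on the calls made here. SE is the log2 fold change divided by the square root of F. Positions and exon lengths come from GENCODE vM21. Named genes were each of the 6, up to 4 called genes per list, up to 4 abundant genes of the club cell, BPI fold, secretoglobin, defence and regulator lists, and the 5 (Bpifa1: 10) most similar genes. Foxa1, Foxa2, Foxa3 and Stat6 were named beyond this for their motifs, and Fmo1 to complete a count. The genes and lists were chosen with earlier results of these data known. Alternatives were RLE factors, library totals, scaling without mitochondrial genes and the 6 genes, DESeq2 1.42.0, limma voom 3.58.1, a newer dispersion method, no filter, 2 groups only, a replicate block, and leaving out libraries.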

Additional observations from a re-analysis of the deposited data

How the results depend on the processing

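Called between asthma and control were 3315 genes with DESeq2, 171 to 4262 without 1 library, and 5361 without asthma replicate 3 and BSYQF replicate 1, against 1869. Of the 6 genes, 1 was called with RLE factors, without the filter and with the replicate block, 4 without both libraries, and 1 to 3 without 1 library. Between BSYQF and asthma, against 1 gene, 123 were called with DESeq2, 0 with limma voom, 0 with the 2 groups only, 15 with the replicate block, 1744 without both libraries and 0 to 114 without 1 library; of the 6 genes 1 (Bpifa1) was called with DESeq2, the block and without both libraries, and 0 to 1 without 1 library. Between BSYQF and control, against 246 genes, 826 were called with DESeq2, 90 with voom, 389 with the 2 groups only, 427 without both libraries and 9 to 563 without 1 library; of the 6 genes 1, 2 and 1 were called with DESeq2, the 2 groups only and without both libraries, and 0 to 2 without 1 library.

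Signs turned for small differences. Scgb3a2 in asthma was 0.16 without asthma replicate 1. Between BSYQF and asthma, Cyp2f2 was -0.24, -0.15 and -0.05 without asthma replicate 1 and BSYQF replicates 2 and 3, Scgb3a1 -0.11 without asthma replicate 3 and -0.27 without both libraries, and Bpifb1 -0.19 without BSYQF replicate 1 and -0.55 without both. Without 1 library each, these differences ranged from -0.47 to 0.16 (Scgb3a2), -0.24 to 0.66 (Cyp2f2), -0.11 to 1.04 (Scgb3a1) and -0.19 to 1.16 (Bpifb1). The causes were not tested. Same-numbered libraries of different groups had deviations that correlated at -0.259 to 0.339, not above 0.1 in every pair, and the labels do not say what the numbers share, so the block is given as an alternative only. Scaling by library totals alone moved the median of all genes by -0.10 in asthma. Each of the 6 genes had at least 309 counts in every library, and each group had 3 libraries.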
